A study of Mus musculus with 13 samples.

Results

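The genes described here are the m6A writers Mettl3, Mettl14 and Wtap, the erasers Alkbh5 and Fto, and the YTH-domain readers Ythdc1, Ythdc2, Ythdf1, Ythdf2 and Ythdf3. They were chosen by symbol as the genes of these functions, with earlier results of these data known. All 10 were found among the 18939 genes listed for both stages. RNA-seq of 13 single mouse oocytes was analysed: 3 SN GV, 3 NSN GV, 4 SN-MII and 3 NSN-MII oocytes. In SN (surrounded nucleolus) oocytes chromatin forms a ring around the nucleolus-like body, and in NSN (non-surrounded nucleolus) oocytes it does not. GV oocytes still have the germinal vesicle, the nucleus of meiotic prophase, and MII oocytes are arrested at metaphase of the second meiotic division. SN-MII and NSN-MII oocytes were matured in vitro from classified SN and NSN GV oocytes. All groups came from C57BL/6 females aged 3 to 4 weeks, taken 48 h after PMSG. The oocytes of all groups were injected with FBL–GFP and H2B-mCherry mRNA, which marked the nucleolus and the chromatin, and were held at the GV stage with Cilostamide for 6 h. No uninjected oocytes were compared, and the study names damage from the injection as a limit of the method.

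N6-methyladenosine (m6A) is an internal mark of mRNA. A nuclear methyltransferase writes it, with Mettl3 as the catalytic subunit, Mettl14 as its RNA-binding partner and Wtap as the adaptor that places the complex in nuclear speckles. Alkbh5 and Fto remove the mark, and YTH proteins bind it and alter the splicing, export, translation or decay of the marked mRNA. A fully grown SN oocyte matures without new transcription, on mRNAs that it stored, and part of these are lost while others gain poly(A) and are translated. When the study labelled new RNA, NSN GV oocytes took up the label and SN GV oocytes almost none. The part of new transcription in the changes of NSN oocytes was not tested. In mice Ythdf2 and Ythdc1 are known to be needed for oocyte competence and growth.

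SMART-seq2 was used for cDNA, and its reverse transcription starts at poly(A) tails. Values are relative within a library, so more transcripts, a smaller loss than that of other genes and a longer poly(A) tail cannot be told apart. Each library was 1 oocyte, and nothing states which female it came from, so the p-values measure the spread between these oocytes. Total counts lay between 7140416 and 8846287 per library, and 11579 to 13333 genes were detected. GV_NSN replicate 2 and MII_NSN replicate 3 stood apart from the other oocytes of their groups. Their chi-square per degree of freedom against those was 59.1 to 66.4 at GV and 52.5 to 67.1 at MII, while the other pairs within a group gave 11.9 to 31.8 and 10.2 to 32.8. All 10 oocyte markers had counts in every library and summed to between 16844 and 26137 CPM (counts scaled to a common library total). Of 12 cumulus and granulosa cell markers, 3 to 7 had a count in a library. Their sum was 56.8 to 85.1 CPM in GV and 86.0 to 176 CPM in MII oocytes. Cyp19a1, the aromatase gene, made most of it, with 37.8 to 67.3 CPM in GV and 77.0 to 158 CPM in MII oocytes. Nr5a2 also had counts in every library but did not rise, with 9.86 to 18.5 CPM in GV and 6.93 to 15.5 CPM in MII oocytes. Has2, Inha and Ptgs2 had counts in part of the libraries, at most 4.88, 4.62 and 2.25 CPM. Foxl2 and Ptx3 had no count in any library, and Fshr had none in MII oocytes. The part of these cells in the results was not tested.

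The level of each gene is given as CPM after TMM scaling, and differences are log2 fold changes from edgeR's quasi-likelihood test, adjusted over all genes tested, with adjusted p under 0.05 called. All 10 genes passed the filter on low counts in every comparison. Between MII and GV oocytes of both types together, 6 of the 10 were called, 5 higher and 1 lower in MII. Wtap rose the most, Ythdf3, Ythdc2, Alkbh5 and Ythdc1 rose as well, and Mettl14 fell. Of all 11375 genes tested, 68.6% were called in this comparison, so 6 of 10 was near the background. By direction, 31.7% of all genes were called higher and 36.9% lower. The median log2 change was 0.60 over the 10 genes and -0.10 over all genes. Groups did not overlap for 3 of the 10, Wtap, Ythdf3 and Mettl14, against 47.4% of all genes (20.9% higher and 26.5% lower in MII). Between NSN and SN oocytes, 0 of the 10 were called at GV, where 0% of 10839 genes were called, and 0 of the 10 at MII, where 0.259% of 10028 genes were called. At an unadjusted p under 0.05, 1.75% of all genes passed at GV, where Mettl14 passed among the 10, and 9.38% at MII, where Mettl14 and Ythdf2 passed. DESeq2 also called 0 of the 10 at either stage.

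**Figure D1:**
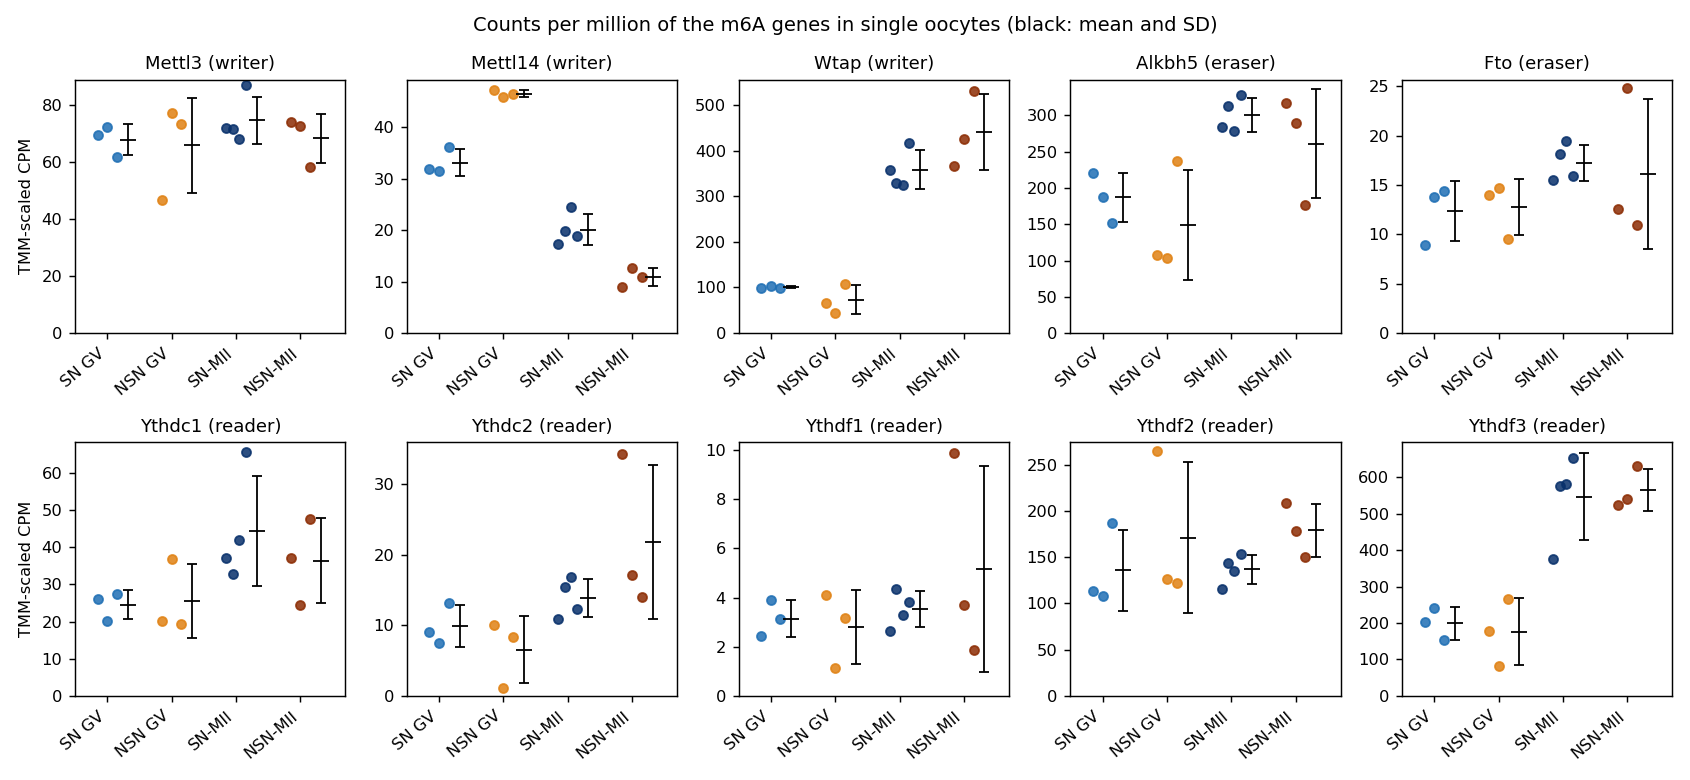
TMM-scaled CPM (linear axes from 0) of the 10 genes in SN GV, NSN GV, SN-MII and NSN-MII oocytes. Each point is 1 oocyte in the order of its replicate number, and the black mark and bar are the group mean and SD. Wtap and Ythdf3 were higher in all 7 MII than in all 6 GV oocytes, and Mettl14 was lower in all 7.

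Among the writers, Mettl3 did not pass the test. Its level was 69.2, 72.2 and 61.7 CPM in SN GV and 46.6, 77.2 and 73.4 CPM in NSN GV oocytes. In SN-MII oocytes it was 71.9, 71.6, 67.9 and 86.8 CPM, and in NSN-MII oocytes 74.0, 72.5 and 58.2 CPM. The 4 groups overlapped. The change from GV to MII was 0.10 on the log2 scale (SE 0.16, adjusted p = 0.599, edgeR's quasi-likelihood test), and its sign turned under total count scaling (-0.18) and on FPKM (-0.18 by limma). Mettl3 overlaps Tox4 on the opposite strand at its 3′ end (chr14:52294841-52305128, minus strand), and no strand-specific step is named. Its counts were fractional in all libraries, so reads shared with another gene, which the data do not name, are part of its value. Wtap and Alkbh5, which no annotated gene overlaps, had fractional counts in all but 1 of the 13 libraries.

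Wtap had 99.5, 104 and 98.3 CPM in SN GV oocytes and 66.9, 44.4 and 108 CPM in NSN GV oocytes. In SN-MII oocytes it had 358, 329.8, 325 and 418 CPM, and in NSN-MII oocytes 367, 425 and 531 CPM. Every MII oocyte was above every GV oocyte, and the lowest value was that of GV_NSN replicate 2. Over both types Wtap rose 4.64-fold (log2 change 2.21, SE 0.19, adjusted p = 2.81e-08, edgeR's quasi-likelihood test). It rose by 1.83 (SE 0.26) on the log2 scale in SN and by 2.59 (SE 0.28) in NSN oocytes, with adjusted p-values of 1.79e-05 and 1.05e-06 by the same edgeR test. The difference between these changes was 0.76 (SE 0.36, unadjusted p under 0.05) and was not called (adjusted p = 0.927, edgeR). Without GV_NSN replicate 2 that difference was 0.50. The Wtap gene lies at chr17:12966796-12994169 on the minus strand of GRCm38.

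Mettl14 moved the other way. It had 31.9, 31.6 and 36.1 CPM in SN GV and 47.4, 45.9 and 46.5 CPM in NSN GV oocytes. It had 17.4, 19.8, 24.4 and 18.8 CPM in SN-MII and 9.04, 12.6 and 11.0 CPM in NSN-MII oocytes. None of the 4 groups overlapped another, with NSN above SN at GV and below SN at MII. Over both types Mettl14 fell 2.66-fold (log2 change -1.41, SE 0.17, adjusted p = 1.57e-06, edgeR's quasi-likelihood test). The fall was 1.65-fold in SN oocytes (log2 change -0.72, SE 0.23, adjusted p = 0.0125, edgeR) and 4.28-fold in NSN oocytes (log2 change -2.10, SE 0.26, adjusted p = 4.87e-06, edgeR). Without GV_SN replicate 3 the fall in SN oocytes was no longer called (adjusted p = 0.0517).

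The NSN to SN difference of Mettl14 was 0.51 on the log2 scale at GV (SE 0.21, adjusted p = 1, edgeR's quasi-likelihood test) and -0.89 at MII (SE 0.28, adjusted p = 0.276, edgeR). Groups that did not overlap were found for 1 of the 10 genes at each stage, against 6.04% of all genes at GV (3.12% higher and 2.92% lower in NSN) and 10.2% at MII (4.63% higher and 5.57% lower). The interaction of type and stage was -1.37 (SE 0.34) and was not called by edgeR's quasi-likelihood test (adjusted p = 0.317). Of all genes, 0.0176% were called in the interaction and 5.33% had an unadjusted p under 0.05. DESeq2 called this interaction (-1.36, adjusted p = 0.0184), and over all alternatives the adjusted p lay between 0.0184 and 0.941.

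In FPKM, which the authors scaled by gene length, Mettl14 had 3.25, 4.43 and 8.25 in NSN-MII oocytes and 5.65 to 7.96 in SN-MII oocytes, and these groups overlapped. MII_NSN replicate 3 held the lowest count of Mettl14, 65 (95% Poisson interval 50.2 to 82.8, for counting error only), and the highest FPKM of the 7 MII oocytes. Its count per unit of FPKM, adjusted for differences between libraries, was 0.389 times the median of the libraries. In the other libraries this adjusted ratio was 0.981 to 1.05. This ratio stands for the transcript length the authors' quantification assigned to the gene. The NSN to SN difference at MII was -0.31 on log2(FPKM + 1) (SE 0.30, adjusted p = 0.794, limma) and the interaction -0.78 (SE 0.38, adjusted p = 0.941, limma), while the fall from GV to MII stayed called on FPKM (-1.20, SE 0.19, adjusted p = 6.87e-05, limma).

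**Figure D2:**
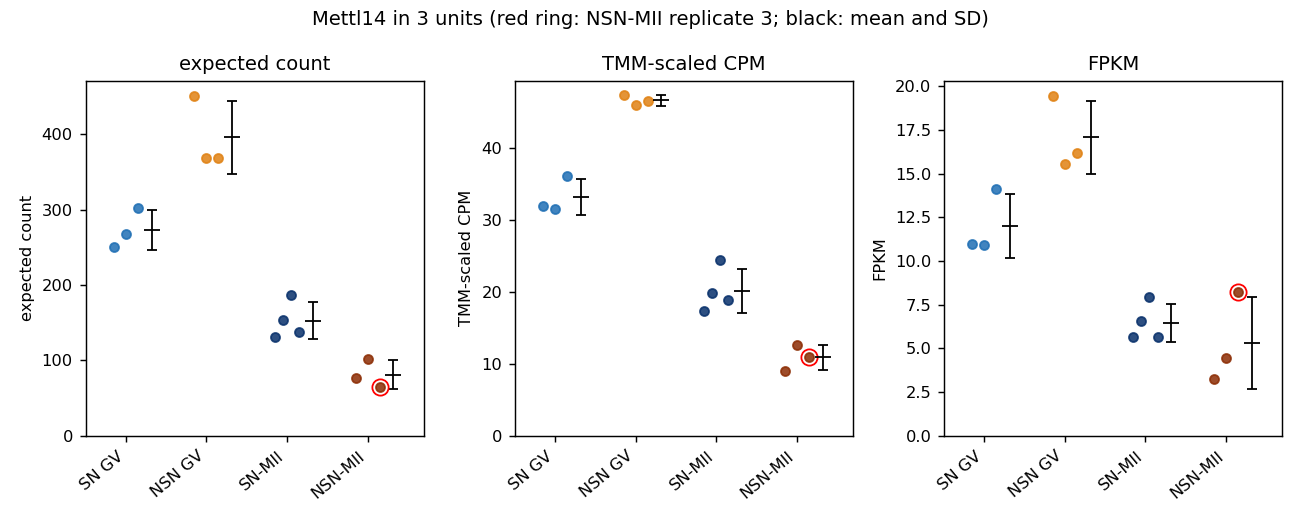
Mettl14 as deposited count, TMM-scaled CPM and FPKM (linear axes from 0) in the 4 groups. Points are oocytes, black marks and bars are means and SDs, and the red ring marks NSN-MII replicate 3, which had 65 counts, 11.0 CPM and 8.25 FPKM, the lowest count and the highest FPKM of the MII oocytes.

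The ends of the Wtap, Mettl14 and Ythdf3 transcripts are shown because these were the 3 genes whose stages did not overlap and because the libraries were primed at the poly(A) tail. The cytoplasmic polyadenylation element, bound by CPEB proteins during maturation, was searched as TTTTAT or TTTTAAT, and the polyadenylation signal as AATAAA or ATTAAA, on the transcript strand in the last 100 bases of a GENCODE vM21 transcript. The motif is in capitals, read 5′ to 3′ on the strand of the gene in GRCm38.
Wtap, polyadenylation element, chr17:12966796-12966819, minus strand: aaataaacatTTTTATtacgactc
Mettl14, polyadenylation element, chr3:123368326-123368351, minus strand: gtaactccttTTTTATtttgctataa
Mettl14, polyadenylation signal, chr3:123368303-123368328, minus strand: taacttttctAATAAAaatttaaacc
Ythdf3, polyadenylation signal, chr3:16217007-16217032, plus strand: tgagggtttcAATAAAaattgttcac
All of these lie in the 3′ UTR. The polyadenylation element was found in 2 of the 10 genes, Wtap, which rose, and Mettl14, which fell, and in 18.2% of 16573 genes with a 3′ UTR of at least this length. It started 14 bases before the end of the Wtap transcript, with another match at 100 bases, and 45 bases before the end of the Mettl14 transcript. The polyadenylation signal started 23 bases before the end in Wtap and 22 bases in Mettl14. The Wtap element shown thus lies after its signal, and that of Mettl14 before it. None was found in this window of Ythdf3. A polyadenylation signal was found in all 10 genes and in 81.2% of all genes.

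Of the erasers, Alkbh5 rose and Fto was not called. Alkbh5 had 221, 188 and 152 CPM in SN GV and 108, 103 and 237 CPM in NSN GV oocytes. In SN-MII oocytes it had 284, 313, 279 and 328 CPM, and in NSN-MII oocytes 318, 289.8 and 176 CPM. All SN-MII values were above all GV values, and the stages overlapped in NSN oocytes through NSN GV replicate 3 and NSN-MII replicate 3. Over both types Alkbh5 rose 1.68-fold (log2 change 0.75, SE 0.21, adjusted p = 0.00396, edgeR's quasi-likelihood test). The change was called in SN (0.69, SE 0.28, adjusted p = 0.0472) and in NSN oocytes (0.81, SE 0.30, adjusted p = 0.0297) by edgeR. The call in SN oocytes was lost whichever of the 7 SN oocytes was left out (adjusted p 0.0536 to 0.176). The call in NSN oocytes was lost without any of GV_NSN replicates 1 and 2 and MII_NSN replicates 1 and 2, and without GV_NSN replicate 3 the change was 1.32. On FPKM neither call by type held in any of the 3 limma fits (adjusted p up to 0.251 in SN and 0.137 in NSN oocytes). Under total count scaling the adjusted p over both types was 0.052.

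Fto, which also acts on m6Am next to the cap, had 8.92, 13.8 and 14.4 CPM in SN GV and 14.0, 14.7 and 9.48 CPM in NSN GV oocytes. In SN-MII oocytes it had 15.5, 18.1, 19.4 and 15.9 CPM, and in NSN-MII oocytes 12.6, 24.8 and 11.0 CPM. SN-MII oocytes were all above SN GV oocytes, and these groups did not overlap for 7217 of all 11375 genes. In NSN oocytes the stages overlapped. The change over both types was 0.41 (SE 0.24, adjusted p = 0.144, edgeR's quasi-likelihood test). Each library held 65 to 201 counts of Fto. The gene spans chr8:91313525-91668439 (plus strand), which also holds 8 genes of either strand, none of them annotated as protein-coding.

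Ythdc1, the nuclear reader that acts in splicing and export, rose over both types. It had 26.0, 20.1 and 27.4 CPM in SN GV and 20.1, 37.0 and 19.4 CPM in NSN GV oocytes. It had 37.0, 32.8, 41.8 and 65.8 CPM in SN-MII and 37.2, 24.6 and 47.6 CPM in NSN-MII oocytes. The stages overlapped in NSN oocytes, where GV_NSN replicate 2 had the highest GV value, and did not in SN oocytes. The change was 0.68 over both types (SE 0.23, adjusted p = 0.016, edgeR's quasi-likelihood test). In SN oocytes it was 0.86 (SE 0.32, adjusted p = 0.0325) and in NSN oocytes 0.51 (SE 0.34, adjusted p = 0.212) by edgeR, and the interaction was -0.34 (SE 0.46, adjusted p = 1). The call in SN oocytes was lost without any of the 3 GV_SN oocytes or MII_SN replicate 4, which had 65.8 CPM (adjusted p up to 0.12). In NSN oocytes the change was called without GV_NSN replicate 2 (0.87, adjusted p = 0.0466). A non-coding gene, Gm43055, overlaps Ythdc1 on the same strand, and the counts of Ythdc1 were fractional in all libraries. Under total count scaling the change over both types was 0.37 (adjusted p = 0.15).

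Ythdc2, a reader with an RNA helicase domain that germ cells need for meiosis, was low. It had 9.05, 7.45 and 13.2 CPM in SN GV and 10.1, 1.12 and 8.34 CPM in NSN GV oocytes. It had 10.9, 15.4, 16.8 and 12.3 CPM in SN-MII and 34.3, 17.1 and 14.0 CPM in NSN-MII oocytes. The 1.12 CPM of GV_NSN replicate 2 were 9 counts (95% Poisson interval 4.12 to 17.1), and the 34.3 CPM of MII_NSN replicate 1 were 288 counts. Over both types Ythdc2 rose 2.16-fold (log2 change 1.11, SE 0.38, adjusted p = 0.0155, edgeR's quasi-likelihood test). The call was lost without MII_NSN replicate 1 (0.83, adjusted p = 0.0801), under total count scaling (0.81, adjusted p = 0.0974) and in 2 of 3 limma fits of FPKM (0.57 to 1.02, adjusted p up to 0.107). In NSN oocytes the change was 1.74 (SE 0.56, adjusted p = 0.014) and in SN oocytes 0.48 (SE 0.51, adjusted p = 0.437) by edgeR, and the difference between them was 1.25 (SE 0.74, adjusted p = 1). Without MII_NSN replicate 1 the change in NSN oocytes was 1.19 (adjusted p = 0.114), and the call there was also lost under total count scaling (adjusted p = 0.0576) and by limma without a filter (adjusted p = 0.0902).

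Of the cytoplasmic readers, which share a YTH domain and differ in the steps attributed to them, Ythdf3 rose. It had 203, 242 and 152 CPM in SN GV and 178, 82.5 and 266 CPM in NSN GV oocytes. It had 375, 577, 581 and 654 CPM in SN-MII and 524, 539.7 and 631 CPM in NSN-MII oocytes. Every MII oocyte was above every GV oocyte, and the lowest value was again that of GV_NSN replicate 2. Ythdf3 rose 2.97-fold over both types (log2 change 1.57, SE 0.23, adjusted p = 1.16e-05, edgeR's quasi-likelihood test). The rise was 1.46 (SE 0.31, adjusted p = 0.000865) in SN and 1.69 (SE 0.33, adjusted p = 0.0004) in NSN oocytes by edgeR. Leaving out each oocyte in turn kept the change over both types between 1.40 and 1.79.

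Ythdf2, which recruits the CCR4-NOT deadenylase to marked mRNAs, had 113, 108 and 186 CPM in SN GV and 265, 126 and 122 CPM in NSN GV oocytes. It had 115, 143, 135 and 153 CPM in SN-MII and 208, 179 and 150.2 CPM in NSN-MII oocytes. The stages overlapped, and the highest value was that of GV_NSN replicate 1. The change over both types was 0.04 (SE 0.20, adjusted p = 0.881, edgeR's quasi-likelihood test), and its sign turned under DESeq2 (-0.01), total count scaling (-0.28) and limma on FPKM (-0.10). Without GV_NSN replicate 1 it was 0.27. NSN oocytes differed from SN oocytes by 0.37 at GV (SE 0.38, adjusted p = 1) and by 0.39 at MII (SE 0.18, adjusted p = 0.525) by edgeR. At GV the sign turned without GV_NSN replicate 1 (-0.18).

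Ythdf1, linked to translation of marked mRNAs, had the fewest counts of the 10 genes, 9 to 83 per library. It had 2.42, 3.90 and 3.11 CPM in SN GV and 4.10, 1.12 and 3.16 CPM in NSN GV oocytes. It had 2.65, 4.36, 3.28 and 3.81 CPM in SN-MII and 9.87, 3.71 and 1.86 CPM in NSN-MII oocytes. All 4 groups overlapped, and the highest value was that of MII_NSN replicate 1, as for Ythdc2. The change over both types was 0.52 (SE 0.44, adjusted p = 0.303, edgeR's quasi-likelihood test), and 0.05 without MII_NSN replicate 1.

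**Figure D3:**
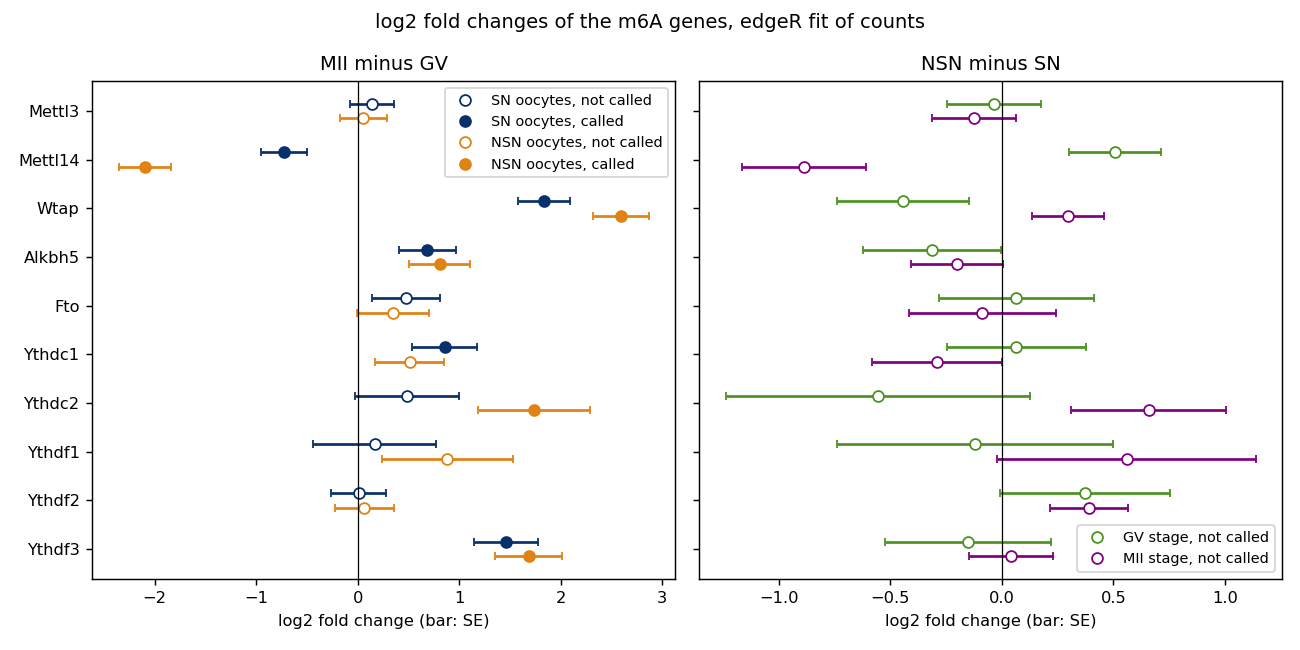
log2 fold changes (MII minus GV in SN and in NSN oocytes, left; NSN minus SN at GV and at MII, right) of the 10 genes, with bars of 1 SE and filled points for adjusted p under 0.05. In the left panel 5 genes were called in SN and 5 in NSN oocytes, and in the right panel none was called at either stage.

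Taken by type, 5 of the 10 genes were called between SN-MII and SN GV oocytes, namely Wtap, Ythdf3, Ythdc1 and Alkbh5 higher and Mettl14 lower, with 56.3% of all genes called (25.1% higher and 31.2% lower). Between NSN-MII and NSN GV oocytes 5 were called, Wtap, Ythdf3, Ythdc2 and Alkbh5 higher and Mettl14 lower, again with 56.3% of all genes called (25.5% higher and 30.8% lower). In SN oocytes the stages did not overlap for 6 of the 10 genes and for 7217 of all 11375 genes. In NSN oocytes they did not overlap for 4 of the 10 and for 6934 of all genes. No interaction of type and stage was called among the 10 by edgeR's quasi-likelihood test. Those of Mettl14 and Wtap had an unadjusted p under 0.05. Without GV_NSN replicate 2 and MII_NSN replicate 3 together, a choice made after seeing the data, 6 were called over both types, 5 in SN and 5 in NSN oocytes. With 1 oocyte left out in turn, 2 to 4 were called in SN and 3 to 5 in NSN oocytes. Total count scaling left 3 called in each type.

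Spread between oocytes of a group was uneven among the 10 genes. As the mean over the 4 groups of the SD of log2 CPM, it was lowest for Mettl14 (0.14) and Mettl3 (0.21) and highest for Ythdc2 (0.65) and Ythdf1 (0.53), the genes with the lowest levels. GV_NSN replicate 2 had the lowest CPM of the 6 GV oocytes in 5 of the 10 genes, Wtap, Alkbh5, Ythdc2, Ythdf1 and Ythdf3, and in 24.9% of all genes. It had the highest in 3 of the 10, and in 27.1% of all genes. MII_NSN replicate 3 had the lowest CPM of the 7 MII oocytes in 4 of the 10 genes, and in 22.4% of all genes.

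Levels were compared between genes in FPKM, with no test. Wtap and Ythdf3 had the highest FPKM of the 10 genes in MII oocytes. The group means of Wtap were 49.0 ± 1.49 in SN GV (SD, n = 3), 36.3 ± 15.4 in NSN GV (n = 3), 157 ± 12.0 in SN-MII (n = 4) and 198 ± 15.8 in NSN-MII oocytes (n = 3). Ythdf3 had group means of 45.8 ± 9.19, 42.7 ± 21.5, 111 ± 22.7 and 118 ± 1.5 FPKM in the same order. In SN-MII and NSN-MII oocytes every Wtap value was above every Ythdf3 value, and every Ythdf3 value was above those of the other 8 genes.

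In GV oocytes the 5 genes with the highest FPKM, Wtap, Ythdf3, Mettl3, Ythdf2 and Alkbh5, had group means from 24.9 to 49.0. In NSN GV oocytes all 5 overlapped, so their order there did not hold beyond the spread. In SN GV oocytes every Wtap value (47.3 to 50.2) was above those of Mettl3 (36.9 to 44.7), Ythdf2 (26.7 to 46.7) and Alkbh5 (26.3 to 35.1), and Mettl3 and Ythdf3 (37.1 to 55.4) were above Alkbh5, while the other pairs overlapped. Mettl14 followed with 12.0 ± 1.84 in SN GV and 17.1 ± 2.09 in NSN GV oocytes, above Ythdc1 with 8.45 ± 1.32 and 8.34 ± 1.79. In MII oocytes the group means of these were in the other order, with Mettl14 at 6.46 ± 1.09 and 5.31 ± 2.61 and Ythdc1 at 14.4 ± 4.27 and 11.9 ± 2.72 (SN-MII and NSN-MII). At neither stage did the oocytes of these 2 genes overlap. Fto (3.49 to 4.20 FPKM as group means), Ythdc2 (0.950 to 2.71) and Ythdf1 (0.903 to 1.53) were the lowest of the 10 in every group, in this order of group means.

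The FPKM of Wtap relative to that of Mettl3 had a median of 1.11 in SN GV, 1.06 in NSN GV, 4.25 in SN-MII and 4.97 in NSN-MII oocytes. That of Mettl14 relative to Mettl3 had a median of 0.248, 0.382, 0.155 and 0.108 in the same order, with 1 NSN-MII value of 0.317 from MII_NSN replicate 3. The ratio of Ythdf3 to Ythdf2 had a median of 1.62, 0.640, 3.85 and 2.78. It was 2.41 or more in every MII and at most 2.07 in every GV oocyte.

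**Figure D4:**
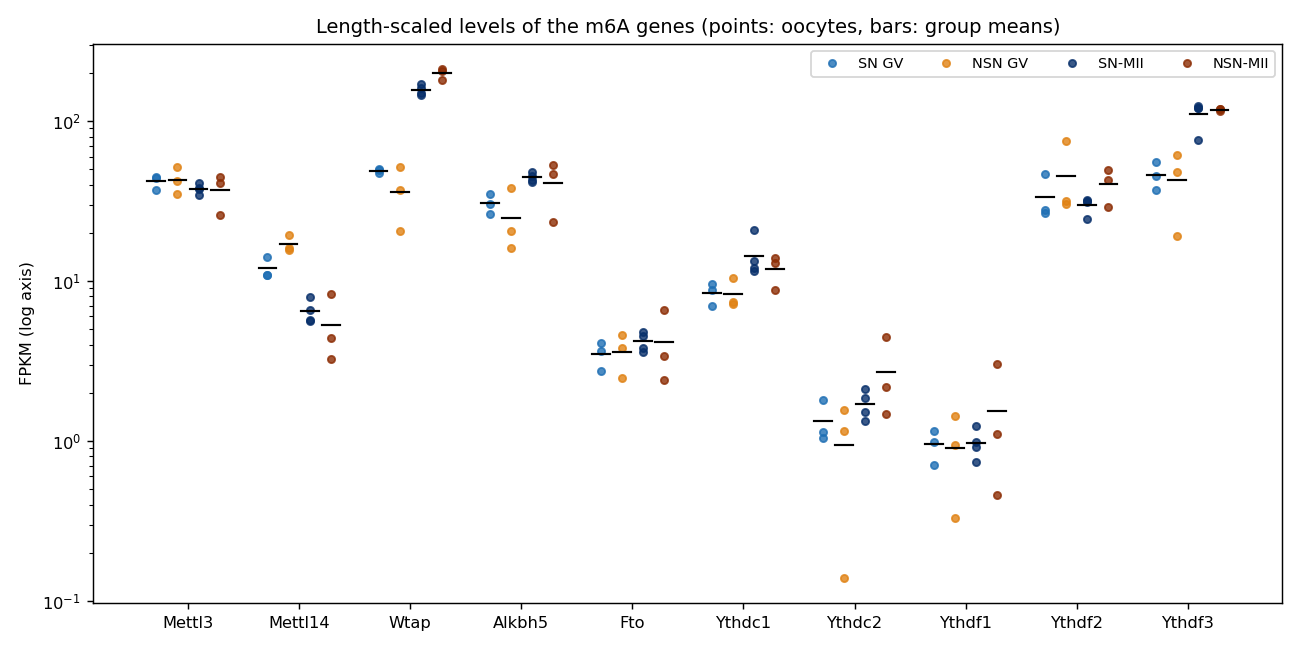
FPKM of the 10 genes on a log axis, by group. Points are oocytes and black bars are group means. Wtap and Ythdf3 separated from the other genes in MII oocytes, and Ythdc2 and Ythdf1 were lowest in all groups.

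The patterns most like those of the 10 genes were found by the root mean square difference of log2(CPM + 1), centred per gene, over the 13 oocytes. The nearest genes were Ric1 (0.164) and Kdm6b (0.176) to Wtap, Clasp2 (0.131) and Phtf2 (0.156) to Ythdf3, and Dmac2 (0.233) and Lrch4 (0.256) to Mettl14. The median distance over all genes was 1.31 to Wtap, 1.08 to Ythdf3 and 0.982 to Mettl14. Mettl3 was nearest to Cep95 (0.109) and Mcrs1 (0.119), Ythdc1 to Serf2 (0.185) and Cdk2ap2 (0.193), and Ythdf2 to Pde12 (0.228) and Zfp7 (0.228). Alkbh5 was nearest to Tacc2 (0.178) and Dnah11 (0.198), and Fto to Pla2g12a (0.218) and Mcfd2 (0.237). The low genes had more distant neighbours, Pdpr (0.300) and Taok2 (0.307) for Ythdc2 and Arfgef3 (0.265) and Mpv17l (0.306) for Ythdf1. These distances share the change between stages and the library effects of the same 13 oocytes.

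Of 33 other genes of the m6A pathway, 31 were tested between MII and GV oocytes of both types, of which 18 were called higher and 7 lower (31.7% and 36.9% of all genes). Their median log2 change was 0.58. The lists were chosen with earlier results of these data known, so the counts and medians given for them are descriptive only. They were also taken with TMM. Over all genes, total count scaling called 2743 higher and 4720 lower, against 3606 and 4195 with TMM. Meioc and Rbm46 did not pass the filter on low counts. The 11 other writers included enzymes outside the mRNA writer complex, among them methyltransferases of rRNA and of the cap. Of these 11, 5 were called higher and 3 lower, and none of the 3 is a subunit of that complex. Virma, the scaffold subunit of the m6A writer complex, rose from 131 ± 65.4 CPM (SD, n = 6) in GV to 302 ± 24.4 CPM (n = 7) in MII oocytes (log2 change 1.22, SE 0.31, adjusted p = 0.00237, edgeR's quasi-likelihood test). Its lowest GV value, 25.1 CPM, belonged to GV_NSN replicate 2, and without it the change was 0.98. Mettl5, the methyltransferase of 18S rRNA, fell by 2.01 on the log2 scale (SE 0.42), with 26 to 87 counts in GV and 5 to 24 counts in MII oocytes.

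Of 9 other m6A binding proteins, 6 were called higher and 0 lower, against 31.7% and 36.9% of all genes. Igf2bp3, an RNA-binding protein that stabilises its targets, rose from 184 ± 20.6 to 662 ± 77.6 CPM (log2 change 1.86, SE 0.13, adjusted p = 3.33e-09, edgeR's quasi-likelihood test), and the stages did not overlap. Igf2bp1 was called as well (2.10, SE 0.88, adjusted p = 0.0438, edgeR), on 0 to 6 counts in GV and 1 to 27 counts in MII oocytes, and the call was lost in 8 of 12 fits with 1 oocyte left out.

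Of 8 partners of the YTH proteins that were tested, 5 were called higher and 3 lower, against the same 31.7% and 36.9%. Upf1, the helicase of nonsense-mediated decay, rose by 1.61 on the log2 scale (SE 0.23, adjusted p = 9.66e-06), and Xrn1, the 5′ to 3′ exonuclease, by 1.43 (SE 0.40, adjusted p = 0.00486, edgeR's quasi-likelihood test). Xrn1 had 14 counts in GV_NSN replicate 2. Nxf1, the mRNA export receptor, fell 10.4-fold from 159 ± 16.4 to 15.8 ± 7.50 CPM (log2 change -3.38, SE 0.27, adjusted p = 1.09e-08, edgeR). Rida, which links Ythdf2 to the RNase P/MRP complex, fell 3.41-fold (SE of the log2 change 0.35), and Cnot1, the scaffold of the CCR4-NOT deadenylase, fell 2.63-fold (SE 0.36), with its lowest GV value of 28 CPM among MII values of 24.4 to 106 CPM.

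The 3 genes of S-adenosylmethionine supply were all called, in a comparison where 68.6% of all genes were. Mat2a and Mat2b, the catalytic and regulatory subunits of the enzyme that makes the methyl donor, were higher in MII, by 1.0 (SE 0.18) and 1.11 (SE 0.14) on the log2 scale. Ahcy, which clears the S-adenosylhomocysteine that methylation leaves, fell 5.17-fold from 34.4 ± 6.71 to 6.59 ± 2.53 CPM (adjusted p = 1.67e-06, edgeR's quasi-likelihood test), and the stages did not overlap.

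By type, 12 of these 31 genes were called higher and 7 lower in SN oocytes (25.1% and 31.2% of all genes), and 12 higher and 5 lower in NSN oocytes (25.5% and 30.8%). Among the genes called in SN oocytes, the 5 largest rises were those of Igf2bp3 (1.93, SE 0.18), Upf1 (1.39, SE 0.31), Mat2b (1.28, SE 0.19), Mat2a (1.25, SE 0.26) and Hnrnpa2b1 (1.12, SE 0.21), a splicing factor. The 5 largest falls among them were those of Nxf1 (-3.06, SE 0.35), Ahcy (-2.10, SE 0.38), Mettl5 (-2.09, SE 0.56), Cnot1 (-1.80, SE 0.49) and Rida (-1.73, SE 0.46).

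Among the genes called in NSN oocytes, the 5 largest rises were those of Upf1 (1.84, SE 0.33), Igf2bp3 (1.78, SE 0.19), Xrn1 (1.72, SE 0.59), Virma (1.41, SE 0.45) and Elavl1 (1.33, SE 0.39), an RNA-stabilising protein. The 5 falls there were those of Nxf1 (-3.70, SE 0.40), Ahcy (-2.65, SE 0.43), Mettl5 (-1.92, SE 0.62), Rida (-1.81, SE 0.51) and Pcif1 (-1.12, SE 0.27), the writer of m6Am at the cap. The call of Mettl5 was lost without GV_NSN replicate 2 (-1.31, adjusted p = 0.106), and that of Pcif1 by limma on FPKM (-0.16 to -0.17, adjusted p up to 0.712). The call of Xrn1 was lost without MII_NSN replicate 1 or replicate 3 (adjusted p up to 0.0578) and under total count scaling (0.066), and that of Elavl1 by limma on FPKM (0.79 to 1.17, adjusted p up to 0.126). Without GV_NSN replicate 3 the change of Virma was 2.24, and without GV_NSN replicate 2 it was 0.93. Between NSN and SN oocytes none of the tested pathway genes was called at GV (30 tested) or at MII (31 tested), nor in the interaction.

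**Figure D5:**
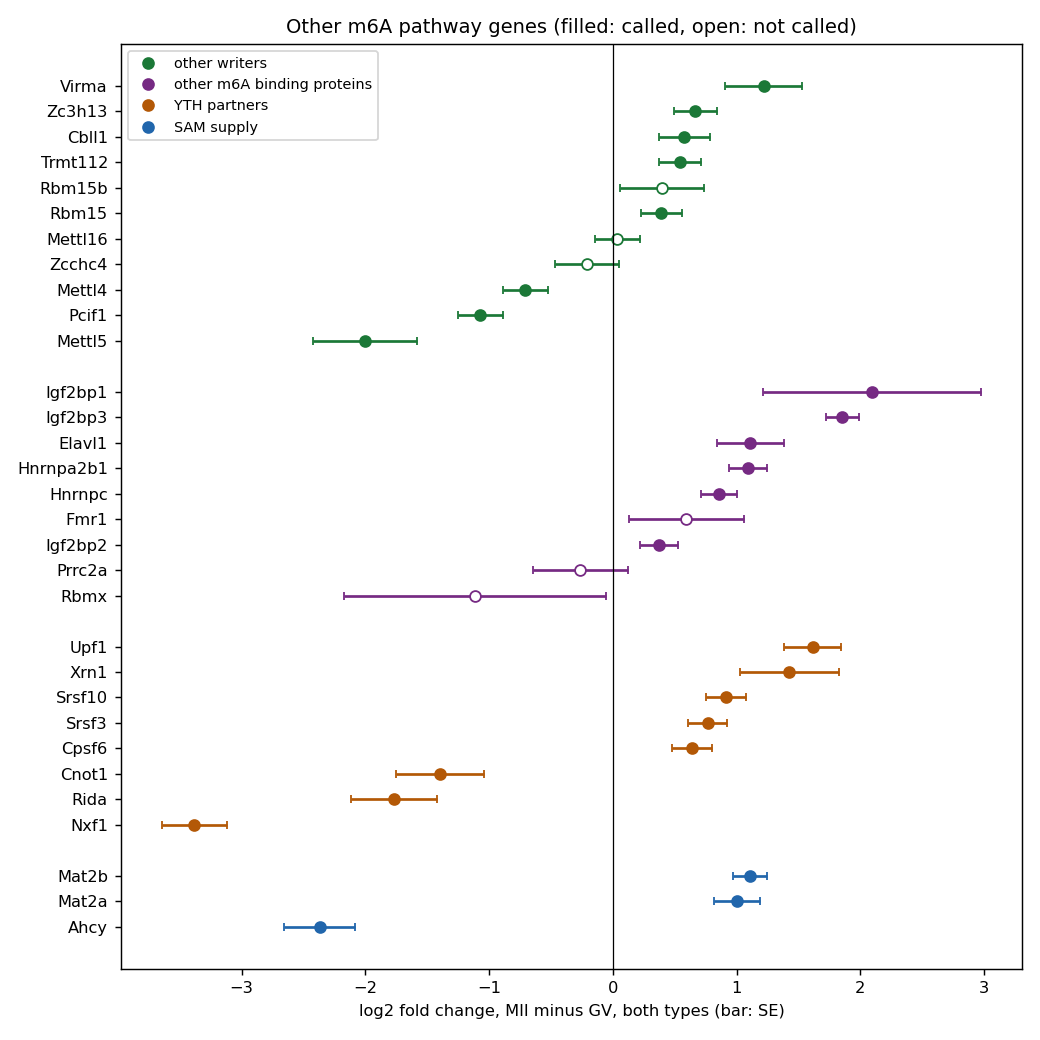
log2 fold changes (MII minus GV over both types) of the 31 other m6A pathway genes tested, by list, with bars of 1 SE. Filled points had an adjusted p under 0.05 (18 higher, 7 lower) and open points did not. Nxf1 fell most (-3.38), and Igf2bp1, at 27 counts or fewer per library, had the widest bar among the called genes.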

How the data were processed

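RNA-seq of 13 single oocytes was analysed, and GEO's labels gave each oocyte its group. Per the submitters' processing notes the authors used Trim Galore 0.4.4, mapped to mm10 with Bowtie2 2.3.5 and quantified each gene with RSEM 1.2.28. The authors deposited an expected count per gene and library, in which a read that maps to several genes is shared out, in 1 table per stage. They also deposited FPKM, in which counts are scaled by effective gene length and library total. No strand-specific step or molecular identifier is named, so intervals cover counting error only.

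Expected counts were rounded and, for the genes in both count tables, scaled by TMM in edgeR 4.0.16 under R 4.3.3 after filterByExpr. The NSN to SN contrast was fitted at each stage separately with the quasi-likelihood test, and p-values were adjusted by Benjamini-Hochberg over all genes tested, with 0.05 as the threshold. The change from GV to MII and the interaction came from 1 fit of all 13 libraries with 4 group means. The common biological coefficient of variation was 0.352 at GV, 0.344 at MII and 0.364 over all libraries. Libraries of the same group differed from each other by more than sampling noise.

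The alternatives were DESeq2 1.42.0, its size factors in edgeR, total count scaling, no filter, a replicate block, all libraries in 1 fit for the NSN to SN contrasts, limma 3.58.1 on log2(FPKM + 1) or log2(FPKM + 0.1) with a minimum mean FPKM of 1 or no filter, and leaving out each oocyte. The steps were tested on simulated data. The text names the 10 genes, the called pathway genes with the 5 largest rises and falls per comparison, and the 2 nearest patterns per gene. The members and lists were chosen with earlier results of these data known. Gene positions and transcript ends came from GENCODE vM21 on GRCm38, the build of mm10. Protein sequences were not used here.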

Additional observations from a re-analysis of the deposited data

Results flagged for a closer look

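The NSN to SN difference of Mettl14 went opposite ways at the 2 stages. The interaction of type and stage was -1.375 on the log2 scale (SE 0.34), with all 3 NSN GV oocytes above all 3 SN GV oocytes and all 3 NSN-MII oocytes below all 4 SN-MII oocytes in CPM. Its unadjusted p was 0.000891 and its adjusted p 0.317 by edgeR's quasi-likelihood test. With 1 oocyte left out the value lay between -1.5 and -1.27, and without GV_NSN replicate 2 and MII_NSN replicate 3 together, which was added after seeing the data, it was -1.39. On FPKM the 2 MII groups overlapped and the value was -0.78 by limma. The cause was not tested.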

How the results depend on the processing

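The calls of Wtap, Ythdf3 and Mettl14 between MII and GV oocytes of both types held under all alternatives run and without any 1 oocyte, with log2 changes of 1.91 to 2.41, 1.27 to 1.79 and -1.71 to -1.20. Total count scaling moved the median of all genes by -0.29 on the log2 scale. Relative to that median Alkbh5, Ythdc1 and Ythdc2 stood at 0.87, 0.76 and 1.21, against 0.85, 0.78 and 1.21 with TMM. Scaling moves all genes nearly alike, so these distances could hardly differ and are no test of the calls. Total count scaling left 3 of the 10 genes called over both types (6 with TMM). By type, 3 were left in SN (5 with TMM) and 3 in NSN oocytes (5 with TMM). Of all called genes in SN oocytes 33.5% were then higher, against 44.6% with TMM. By limma without a filter it was 33.7% in SN oocytes, and 36.2% against 46.2% over both types. On FPKM by limma the median of all genes was -0.24, against -0.10 in CPM. In SN oocytes 3 genes were called with DESeq2 size factors in edgeR, 3 with the replicate block and 3 by limma without a filter, and in NSN oocytes 3 by limma without a filter. DESeq2 called 1 gene, Mettl14, in the interaction, and over all genes it called 218 between NSN-MII and SN-MII oocytes against 26 by edgeR, and 46 against 2 in the interaction, where 6 were called without a filter. For NSN against SN at MII, 16 genes were called with total count scaling, 89 without a filter, 69 with all libraries in 1 fit, 4 by limma (2 without a filter), and 233 without GV_NSN replicate 2 and MII_NSN replicate 3. With 1 oocyte left out, 5 to 6 of the 10 genes were called over both types, 2 to 4 in SN and 3 to 5 in NSN oocytes.

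Same-numbered deviations correlated between -0.459 and 0.203. No correlations of differently numbered oocytes were taken as a baseline, so whether replicate numbers pair the oocytes was not tested. The replicate block gave 2 called genes of all genes between NSN-MII and SN-MII oocytes, and MII_SN replicate 4, the only oocyte with that number, then adds nothing. Among the 10 genes the replicate block also ended the calls of Ythdc1 over both types (adjusted p = 0.0615) and of Alkbh5 and Ythdc1 in SN and Alkbh5 in NSN oocytes, by edgeR.

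The direction turned for changes near 0 that were not called. From GV to MII, Ythdf2 was at -0.011 over both types and -0.048 in SN oocytes with DESeq2 and with its size factors, and at -0.041 in SN oocytes with the replicate block. With total count scaling Mettl3 was at -0.18, -0.16 and -0.20 and Ythdf2 at -0.28, -0.31 and -0.25 over both types, in SN and in NSN oocytes, and Ythdf1 at -0.13 in SN oocytes. By limma on log2(FPKM + 1), with and without the filter, Mettl3 was at -0.18, -0.15 and -0.22 and Ythdf2 at -0.10, -0.14 and -0.069, and with 0.1 added at -0.19, -0.15 and -0.22 and at -0.10, -0.14 and -0.069. Between NSN and SN GV oocytes limma gave 0.023 for Mettl3 and -0.023 for Ythdc1, and 0.024 and -0.026 with 0.1 added. Without GV_NSN replicate 2 and MII_NSN replicate 3 together, NSN against SN at GV gave -0.028 for Fto, -0.27 for Ythdc1, 0.26 for Ythdf1 and 0.20 for Ythdf3, and at MII 0.024 for Alkbh5, 0.13 for Fto and -0.029 for Ythdf3. The interaction then gave 0.15 for Mettl3, 0.19 for Fto, -0.010 for Ythdf2 and -0.20 for Ythdf3, and Ythdf2 was at -0.00013 from GV to MII in NSN oocytes. The cause was not tested.

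With 1 oocyte left out in turn, changes that were not called turned their direction as follows. For NSN against SN at GV the range was -0.14 to 0.12 for Mettl3, -0.13 to 0.25 for Fto, -0.27 to 0.24 for Ythdc1, -0.58 to 0.26 for Ythdf1, -0.18 to 0.70 for Ythdf2 and -0.53 to 0.20 for Ythdf3. At MII it was -0.37 to 0.024 for Alkbh5, -0.56 to 0.13 for Fto, -0.33 to 0.95 for Ythdf1 and -0.10 to 0.14 for Ythdf3. From GV to MII it was -0.0018 to 0.16 for Mettl3 and -0.067 to 0.27 for Ythdf2 over both types, and -0.13 to 0.30 for Ythdf2 in SN oocytes. In NSN oocytes it was -0.14 to 0.18 for Mettl3, -0.10 to 0.53 for Fto, -0.053 to 1.27 for Ythdf1 and -0.12 to 0.53 for Ythdf2. In the interaction it was -0.28 to 0.046 for Mettl3, -0.088 to 0.63 for Alkbh5, -0.59 to 0.068 for Fto, -0.58 to 0.019 for Ythdc1, -0.21 to 1.10 for Ythdf1, -0.23 to 0.52 for Ythdf2 and -0.11 to 0.66 for Ythdf3. Low counts limit Ythdf1 and Ythdc2, whose lowest libraries held 9 counts each.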
